A study of Mus musculus with 14 samples.

Results

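ATAC-seq peaks lying more than 50 kb from every protein-coding gene were examined in LT-HSCs of the mouse, the long-term haematopoietic stem cells that lie mostly quiescent at the root of blood formation. ATAC-seq reads out open chromatin through the sites at which a transposase can insert into DNA. Members were chosen by position alone: a consensus peak on chromosomes 1 to 19 was kept when its distance to the span of every protein-coding gene in the RefSeq annotation of mm10 exceeded 50 kb. This gave 6398 of 57289 consensus peaks (11.17%), each 700 bp long, and no accessibility value entered the choice. The peak just inside the limit lay 50040 bp from its nearest gene and averaged 8.25 CPM (counts scaled to the same total in each library), and the peak just outside lay 49998 bp away and averaged 6.54 CPM.

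The study compared 14 bulk libraries in 3 groups, all from C57BL/6 bone marrow cells sorted as Lin- Sca1+ cKit+ CD34- Flt3-. The aged Ri group held LT-HSCs of mice over 80 weeks old given the RhoA inhibitor Rhosin (Ri) at 100 µM (n = 5). The aged group held untreated LT-HSCs of mice over 80 weeks old (n = 5), and the young group held untreated LT-HSCs of mice 10 to 16 weeks old (n = 4). Before tagmentation, cells of each group spent 16 h in culture at 37 °C under 3% oxygen, so no library comes from freshly isolated cells. The libraries fell into 3 sequencing batches that each held all 3 groups, and the labels do not give the number of mice behind a replicate, so p-values measure the spread between these samples.

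Open chromatin far from genes is made up largely of enhancers and of sites bound by the architectural factor CTCF. Enhancers are bound by transcription factors and can act on promoters across long stretches of DNA, often passing over nearer genes, and in blood stem cells GATA, ETS, RUNX and AP-1 factors are among their best known occupants. The protein-coding genes on either side of a distal peak are therefore given below as its position, not as its targets. Where a peak is said to lie beside a gene, that gene flanks its gap, however far away, and the other flank may be nearer.

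Counts in peaks came to between 765533 and 3176246 per library, with a median of 7 to 30 counts per peak. At this depth a count of 0 allows up to 3 counts, which is 0.968 to 4.26 CPM depending on the library, and young 3 was the shallowest. Peaks at the ends of HSC marker genes were present for 16 of 18 genes, with none at Slamf1 or Gata2, and summed to means of 420 CPM in aged Ri, 416 CPM in aged and 454 CPM in young libraries. That list and its sum include Cd34 and Flt3, the negative markers of the sort. B cell marker gene ends were covered for 6 of 12 genes (Ms4a1 and Pax5 were among those without a peak) and summed to 74.6 to 122 CPM in aged Ri, 62 to 133 CPM in aged and 109 to 334 CPM in young libraries. For T and NK cell genes the sums averaged 90, 101 and 110 CPM in aged Ri, aged and young libraries. In the same order they averaged 62, 79.5 and 87 CPM for mature myeloid genes and 152, 154 and 164 CPM for erythroid genes. Endothelial and stromal genes gave 124, 129 and 116 CPM. Young 1 had the highest B cell sum, and its share of counts on chromosome X was 1.53%, against 1.90% to 2.21% in the other 13 libraries. Several results below that rest on young 1 are given without it as well. Counts by gene list, by kind of sequence and at start sites of non-coding RNAs are given only with it. So are the shares by distance for aged Ri against young. The share of counts at gene ends also moved with age, with 35.9% to 46.8% in aged Ri, 38.8% to 49.6% in aged and 47.0% to 50.8% in young libraries.

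The 6398 distal peaks were spread over 1462 gaps between neighbouring protein-coding genes. Of these gaps, 444 held a single distal peak and 149 held at least 10. The median distance to the nearest protein-coding gene was 116542 bp and the largest was 2137311 bp, and 3682 peaks lay more than 100 kb away. Chromosome 13 held more than any other chromosome, 509 peaks or 19.3% of its own peaks, while distal peaks made up 5.74% of the peaks of chromosome 11 and 6.20% of those of chromosome 19. No annotated non-coding gene overlapped 4549 peaks (71.1%), a long non-coding RNA (lncRNA) gene overlapped 1566 (24.5%), an antigen-receptor locus 149 (2.33%), a pseudogene 120 (1.88%) and another non-coding gene 14. Immunoglobulin and T cell receptor segments are not annotated as protein-coding genes, which is how these loci came to be counted among the distal peaks. Distal peaks were weak: the median over peaks of the mean count was 14.6, against 42.2 for peaks within 1 kb of a gene end, and a mean count of at least 20 was reached by 2063 distal peaks (32.2%). The filter on low counts kept 6234 of the 6398, and 164 were not tested.

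The start sites of lncRNAs give a view of the DNA inside some of these peaks, since a promoter window of 300 bases (250 before to 50 after the annotated start) covered at least 150 bases of a distal peak at 204 peaks. The 6 windows shown belong to peaks whose accessibility differed between groups, lie wholly inside their peak and come from RefSeq on GRCm38.p6. They are written 5′ to 3′ on the strand of the lncRNA, and capitals mark matches, on either strand, to the GATA motif AGATAA, the ETS motif GGAAGT, the RUNX motif TGTGGT and the AP-1 motif TGANTCA, or to the CTCF motif. Gm35922 (chr19:28770516-28770815, plus strand), Gm39895 (chr2:103893810-103894109, plus strand) and Gm32865 (chr16:87128390-87128689, minus strand) lie in peaks that were higher in aged than in young libraries. Gm10505 (chr17:27324946-27325245, plus strand) lies in a peak that was lower in aged libraries, Gm41638 (chr17:83956608-83956907, minus strand) in one that was lower in aged Ri than in aged libraries, and Gm12708 (chr4:95193054-95193353, plus strand) in one that was higher in aged Ri.
Gm35922: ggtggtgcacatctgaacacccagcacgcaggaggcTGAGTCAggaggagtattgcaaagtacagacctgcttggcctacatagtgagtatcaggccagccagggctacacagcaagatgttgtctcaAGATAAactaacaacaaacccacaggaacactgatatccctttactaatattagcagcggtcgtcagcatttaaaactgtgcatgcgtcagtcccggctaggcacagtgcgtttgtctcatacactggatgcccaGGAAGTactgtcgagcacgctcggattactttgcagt
Gm39895: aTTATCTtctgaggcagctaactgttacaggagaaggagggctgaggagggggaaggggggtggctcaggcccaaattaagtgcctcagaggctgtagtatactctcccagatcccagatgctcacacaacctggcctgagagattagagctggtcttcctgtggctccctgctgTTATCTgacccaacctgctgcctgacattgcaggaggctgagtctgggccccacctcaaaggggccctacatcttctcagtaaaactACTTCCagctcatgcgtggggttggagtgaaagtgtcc
Gm32865: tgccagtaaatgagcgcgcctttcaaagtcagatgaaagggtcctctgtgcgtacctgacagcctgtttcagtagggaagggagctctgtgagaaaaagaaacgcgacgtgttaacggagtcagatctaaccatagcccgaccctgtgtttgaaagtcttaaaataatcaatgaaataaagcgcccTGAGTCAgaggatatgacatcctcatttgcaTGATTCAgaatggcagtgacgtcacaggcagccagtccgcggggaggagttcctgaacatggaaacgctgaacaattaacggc
Gm10505: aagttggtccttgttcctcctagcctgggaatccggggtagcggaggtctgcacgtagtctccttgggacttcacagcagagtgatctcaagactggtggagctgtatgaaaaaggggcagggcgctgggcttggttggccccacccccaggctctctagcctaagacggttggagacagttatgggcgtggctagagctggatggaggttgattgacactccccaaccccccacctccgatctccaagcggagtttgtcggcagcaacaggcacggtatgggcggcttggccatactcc
Gm41638: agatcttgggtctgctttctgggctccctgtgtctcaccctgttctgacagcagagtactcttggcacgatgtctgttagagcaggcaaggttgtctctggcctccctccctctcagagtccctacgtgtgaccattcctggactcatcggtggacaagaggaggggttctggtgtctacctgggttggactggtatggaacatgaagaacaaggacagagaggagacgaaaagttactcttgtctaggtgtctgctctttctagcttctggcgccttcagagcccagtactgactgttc
Gm12708: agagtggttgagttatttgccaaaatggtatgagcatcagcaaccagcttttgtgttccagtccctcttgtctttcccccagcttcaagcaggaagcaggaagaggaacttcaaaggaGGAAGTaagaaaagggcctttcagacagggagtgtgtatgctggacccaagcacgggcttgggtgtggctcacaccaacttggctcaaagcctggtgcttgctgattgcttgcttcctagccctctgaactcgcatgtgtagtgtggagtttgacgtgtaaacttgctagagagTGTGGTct

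Gm35922 held 1 GATA, 1 ETS and 1 AP-1 match, Gm39895 held 2 GATA matches and 1 ETS match, Gm32865 held 2 AP-1 matches, and Gm12708 held 1 ETS and 1 RUNX match. None of the 5 motifs was found in Gm10505 or Gm41638. Not every changed window is shown. Gm40822, in a peak that was higher in aged than in young libraries, held none of the 5 motifs either. The window of 4930471E19Rik, in a peak that was lower in aged libraries, held 1 AP-1 match. The calls of both peaks were lost without young 1. Over the 204 promoters in distal peaks, the GATA motif occurred in 26 (12.7%), against 11.2% of all 32851 RefSeq promoter windows of the same length. The RUNX motif occurred in 71 (34.8%, against 16.8% of all windows), the ETS motif in 70 (34.3%, against 23.8%), the AP-1 motif in 33 (16.2%, against 7.81%) and the CTCF motif in 11 (5.39%, against 2.43%). These are counts of letters in promoter windows, which may overlap one another between motifs, and they do not show that a factor was bound. The 204 windows were chosen for lying in a distal peak, and the 32851 were not. These sets were not matched for base composition or type of gene, and the differences between them were not tested.

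On average distal peaks took a larger share of all counts in aged than in young libraries, a difference that did not pass the test after adjustment. The share was 9.46%, 8.05%, 8.61%, 7.35% and 7.46% in aged Ri 1 to 5, 9.04%, 9.02%, 8.56%, 7.86% and 6.78% in aged 1 to 5, and 6.82%, 7.35%, 7.21% and 6.57% in young 1 to 4. The 4 young libraries lay between 6.57% and 7.35%, and of the other 10 only aged 5 fell inside that range, with aged Ri 4 at its upper edge. Counting error was small beside these differences, with Wilson 95% half-widths of 0.0298 to 0.0579 percentage points. Aged averaged 8.25% ± 0.953 (SD, n = 5) and young 6.99% ± 0.358 (n = 4), a batch-adjusted difference of 1.16 points with a 2-sided exact within-batch permutation p of 0.0278, the smallest that 36 arrangements allow, and 0.167 after adjustment over 6 tests. Without young 1 the difference was 0.686 points (exact permutation p = 0.167, adjusted p = 0.333). It was 2.21 points in batch 1, where young 1 was the only young library, 0.926 in batch 2 and 0.205 in batch 3.

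Aged Ri libraries averaged 8.18% ± 0.872 (n = 5), 0.07 points below aged after batch adjustment (difference -0.0655, exact permutation p = 0.833), with -0.275, -0.228 and 0.678 points in the 3 batches. The sign of that difference turned when aged Ri 2 (0.183 points), aged Ri 4 (0.153) or aged 3 (0.0673) was left out. Against young, the aged Ri difference was 1.12 points (exact permutation p = 0.0833, adjusted p = 0.222). Set against intergenic peaks within 50 kb of a gene, the class most like them, distal peaks showed no difference that passed the test. The ratio of distal to near counts was 0.457 ± 0.0168 in aged Ri, 0.465 ± 0.0259 in aged and 0.436 ± 0.0272 in young libraries (SD). The log2 difference in that ratio was 0.09 for aged against young (exact permutation p = 0.111, adjusted p = 0.222; 0.26, 0.03 and -0.01 in the 3 batches, and 0.01 without young 1). By the same permutation test it was -0.02 for aged Ri against aged (p = 0.389) and 0.07 for aged Ri against young (p = 0.222).

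**Figure D1:**
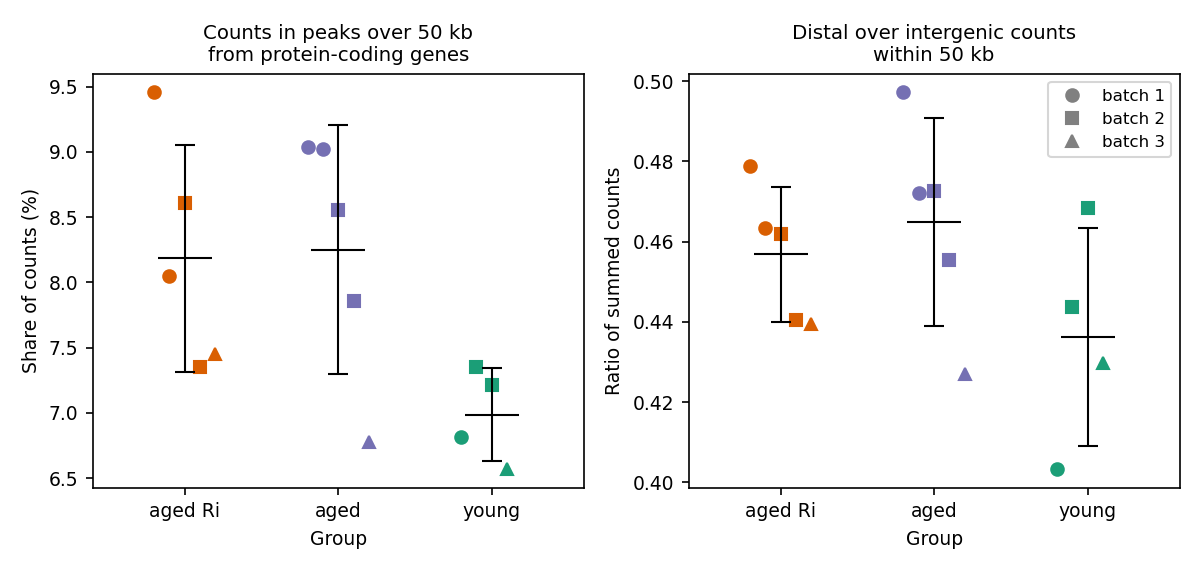
Share of all peak counts that fell in distal peaks (%, left) and ratio of distal counts to counts in intergenic peaks within 50 kb of a gene (right), one point per library, with the mean and SD of each group. The 4 young libraries lie between 6.57% and 7.35% in the share, while the ratio overlaps between groups.

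In single peaks, aged against young gave 543 distal peaks that were higher and 80 that were lower among 6234 tested, by edgeR's quasi-likelihood test at an adjusted p under 0.05. That is 8.71% higher and 1.28% lower, where 5.72% of all 56235 peaks tested were called in either direction (4.45% higher and 1.26% lower). The median log2 fold change was 0.16 over distal peaks and -0.01 over all peaks. In these bulk libraries, fewer cells with a site open and less accessibility per cell cannot be told apart. The count depended on single libraries: it was 162 (150 higher and 12 lower) without young 1, 264 without aged 3 and 388 without aged 1. Dropping young 2, 3 or 4 gave 415, 408 or 1049. With each library's gene-end share as a covariate it fell to 40, all of them higher, so that share and age cannot be told apart in these libraries for most of the calls. Of the single peaks and gaps given below with an adjusted p against young under 0.05, those whose call held in every alternative fit are named as such, and the others were lost with this covariate.

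The share called higher grew with distance from genes. It was 6.86% of 2654 peaks at 50 to 100 kb, 8.52% of 1913 at 100 to 200 kb, 11.4% of 1311 at 200 to 500 kb and 13.8% of 356 over 500 kb. The median log2 fold change in these bins was 0.10, 0.17, 0.23 and 0.33. Peaks near genes were called higher less often: 4.55% of intergenic peaks within 50 kb, 5.24% of peaks in gene bodies and 1.03% of peaks at gene ends. The difference between these classes in the share called was not tested. Among peaks with a mean count of 20 to 50, where power is more alike, the shares were 14%, 16.6%, 23.3% and 21.2% in the 4 distance bins, and 16.9% of distal against 9.19% of near intergenic peaks. Without young 1 the 4 bins gave 2.07%, 2.04%, 3.39% and 4.68%, and with the gene-end covariate 0.414%, 0.47%, 0.992% and 1.97%, so the farthest bin had the highest share in those fits too. At a mean count of 20 to 50 the 4 bins gave 4.62%, 5.07%, 8.36% and 11.2% without young 1. Among kinds of sequence, 423 of 4426 tested peaks without any non-coding gene were higher (9.56%) and 58 lower (1.31%). The counts were 114 (7.44%) and 18 (1.17%) of 1533 in lncRNA genes and 5 (4.24%) and 0 of 118 in pseudogenes. In antigen-receptor loci they were 0 and 4 (2.8%) of 143. Over all distal peaks the shares were 8.71% and 1.28%, and over all peaks 4.45% and 1.26%. Differences between these kinds were not tested.

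**Figure D2:**
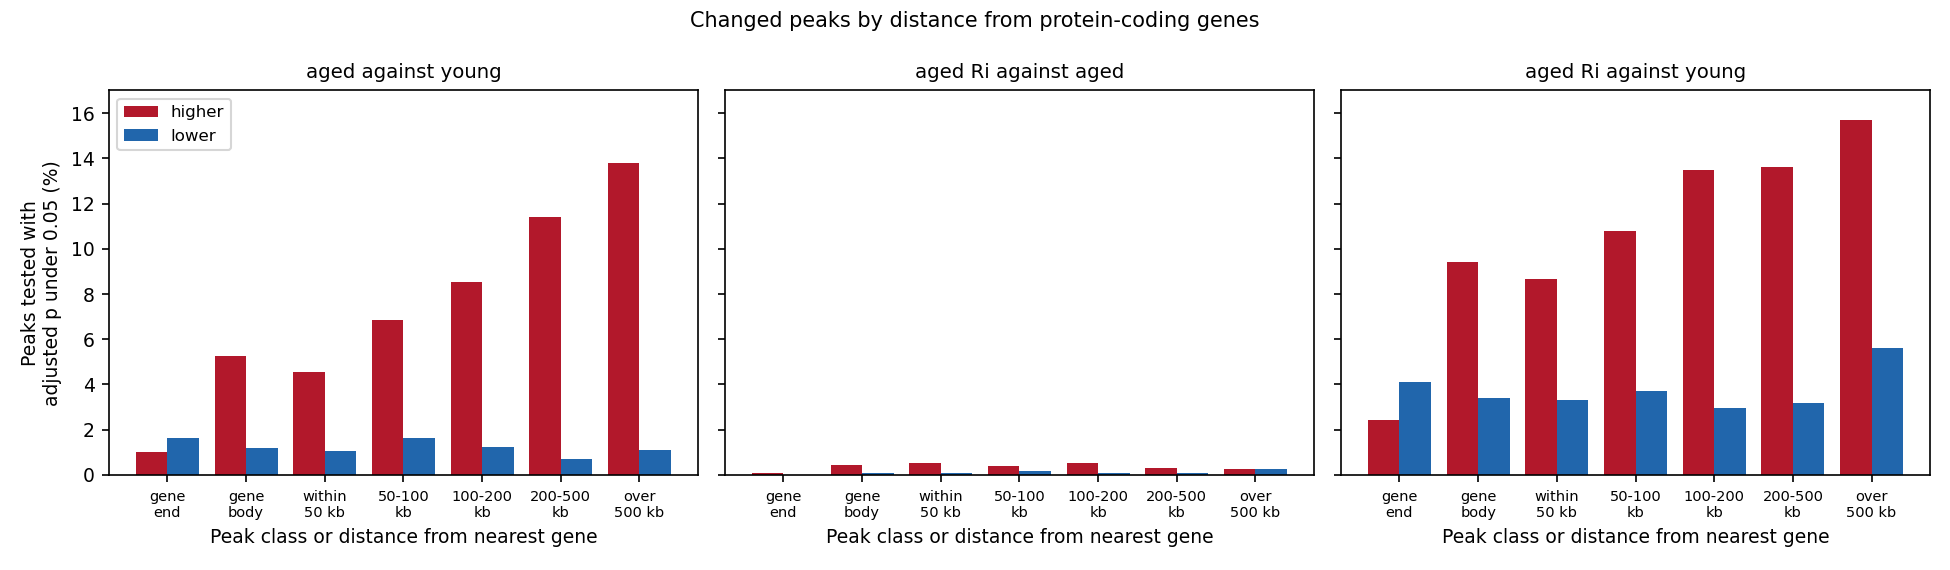
Share of tested peaks called higher (red) or lower (blue) at an adjusted p under 0.05 by class of peak and, for distal peaks, by distance from the nearest protein-coding gene, in each of the 3 comparisons. For aged against young the share called higher is 6.86% at 50 to 100 kb, 13.8% over 500 kb and 1.03% at gene ends.

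Among changed peaks averaging 20 or more counts, the limit used for naming, the largest age difference lay between Arrdc4 and Nr2f2, 77221 bp from Nr2f2, an orphan nuclear receptor gene, and inside the lncRNA Gm29683 (chr7:70274026-70274725). It read 20.8, 11.1, 17.1, 18.7 and 8.09 CPM in aged Ri 1 to 5, 27.3, 28.1, 34.2, 24.6 and 11.6 CPM in aged 1 to 5, and 2.66, 4.12, 0 and 3.87 CPM in young 1 to 4. Every aged library lay above every young one, for a log2 fold change of 2.89 ± 0.365 (SE, 7.4-fold, adjusted p = 8.24e-06), and aged Ri lay above young and overlapped aged (log2 fold change against aged -0.70, adjusted p = 0.249). Another large increase lay in the gap between Nr2f1, a nuclear receptor gene of the same family, and Arrdc3. The peak was 387768 bp from Arrdc3 and 2296044 bp from Nr2f1 (chr13:80494917-80495616). It read 20.3, 39.2, 43.9, 25.5 and 15.4 CPM in aged Ri, 30.5, 28.1, 45.5, 24.6 and 10.7 CPM in aged, and 2.22, 6.19, 4.26 and 3.87 CPM in young libraries. Again no aged or aged Ri value reached down to a young one (log2 fold change 2.68 ± 0.349, adjusted p = 1.27e-05).

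Between Map1b, a microtubule-binding protein gene of neurons, and Cartpt, a neuropeptide precursor gene, lay another large increase (chr13:99679496-99680195). It read 32.3, 30.6, 45.2, 46.7 and 40.0 CPM in aged Ri, 48.9, 64.4, 89.5, 63.0 and 20 CPM in aged, and 6.66, 11.7, 7.1 and 12.1 CPM in young libraries. Its log2 fold change in aged was 2.50 ± 0.308 (adjusted p = 8.55e-06). These 3 calls held in all 17 alternative fits, among them each fit without 1 library and the fit with the gene-end covariate. The other 5 increases named by size held without each library in turn but were lost with that covariate (adjusted p 0.0535 to 0.222). They lay 252586 bp from Ctnna2 (log2 fold change 2.78), between Cntnap5c and Pdzph1 (2.75), between Lrrc4c and Iftap (2.70), between Mfsd1 and Iqschfp (2.63) and between Tmem26 and Rhobtb1 (2.53). Ctnna2 encodes the alpha-catenin of neurons, and Lrrc4c a netrin-G ligand of synapses.

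Of the 80 lower peaks, the largest decrease by the naming rule lay 76678 bp from Runx2, a transcription factor gene of bone (chr17:44418610-44419309). It read 5.21, 5.11, 4.84, 14.4 and 6.06 CPM in aged Ri, 4.81, 7.03, 2.63, 13 and 1.78 CPM in aged, and 45.3, 15.1, 17 and 9.19 CPM in young libraries. Young 1 stood far above the rest, young 4 overlapped with aged 4, and the call (log2 fold change -2.04 ± 0.484, adjusted p = 0.02) was lost without young 1, aged 1 or aged 2 (adjusted p 0.0547 to 0.151).

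A peak 68492 bp from Foxo1, a forkhead factor gene used in stem cell upkeep and B cell development, showed no overlap between aged and young (chr3:52199146-52199845). It read 13, 20.4, 19.7, 25.2 and 25.1 CPM in aged Ri, 10.4, 11.1, 12.0, 10.9 and 16.5 CPM in aged, and 45.3, 26.8, 28.4 and 20.8 CPM in young libraries. The log2 fold change in aged was -1.31 ± 0.264 (adjusted p = 0.00215; 0.111 without young 1). Aged Ri lay above the aged library of the same number in 5 of 5 pairs, and the difference did not pass the test, which does not use these pairs (log2 fold change 0.75, adjusted p = 0.203). The same order of groups appeared 184420 bp from Dusp4, a phosphatase gene of the MAP kinase pathway, inside the lncRNA B930018H19Rik (chr8:34622491-34623190). That peak read 9.37, 19.6, 8.39, 10.4 and 10.1 CPM in aged Ri, 3.21, 4.69, 4.89, 3.42 and 12.5 CPM in aged, and 22.2, 15.8, 14.2 and 13.5 CPM in young libraries. No aged value reached a young one, for a log2 fold change of -1.49 ± 0.334 (adjusted p = 0.00574; 0.0741 without young 1). The remaining 5 lay beside Plk2 (-1.63), Bcl2l11 (-1.44), Fgfr2 (-1.36), Mycn (-1.25) and Tle3 (-1.24). All 8 were lost with the gene-end covariate, and all but the Plk2 peak were lost without young 1, the library with the highest sum at B cell marker gene ends. Some were lost without other single libraries too, with adjusted p values of 0.0508 to 0.213 over those fits. The part of that sum in these decreases was not tested.

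**Figure D3:**
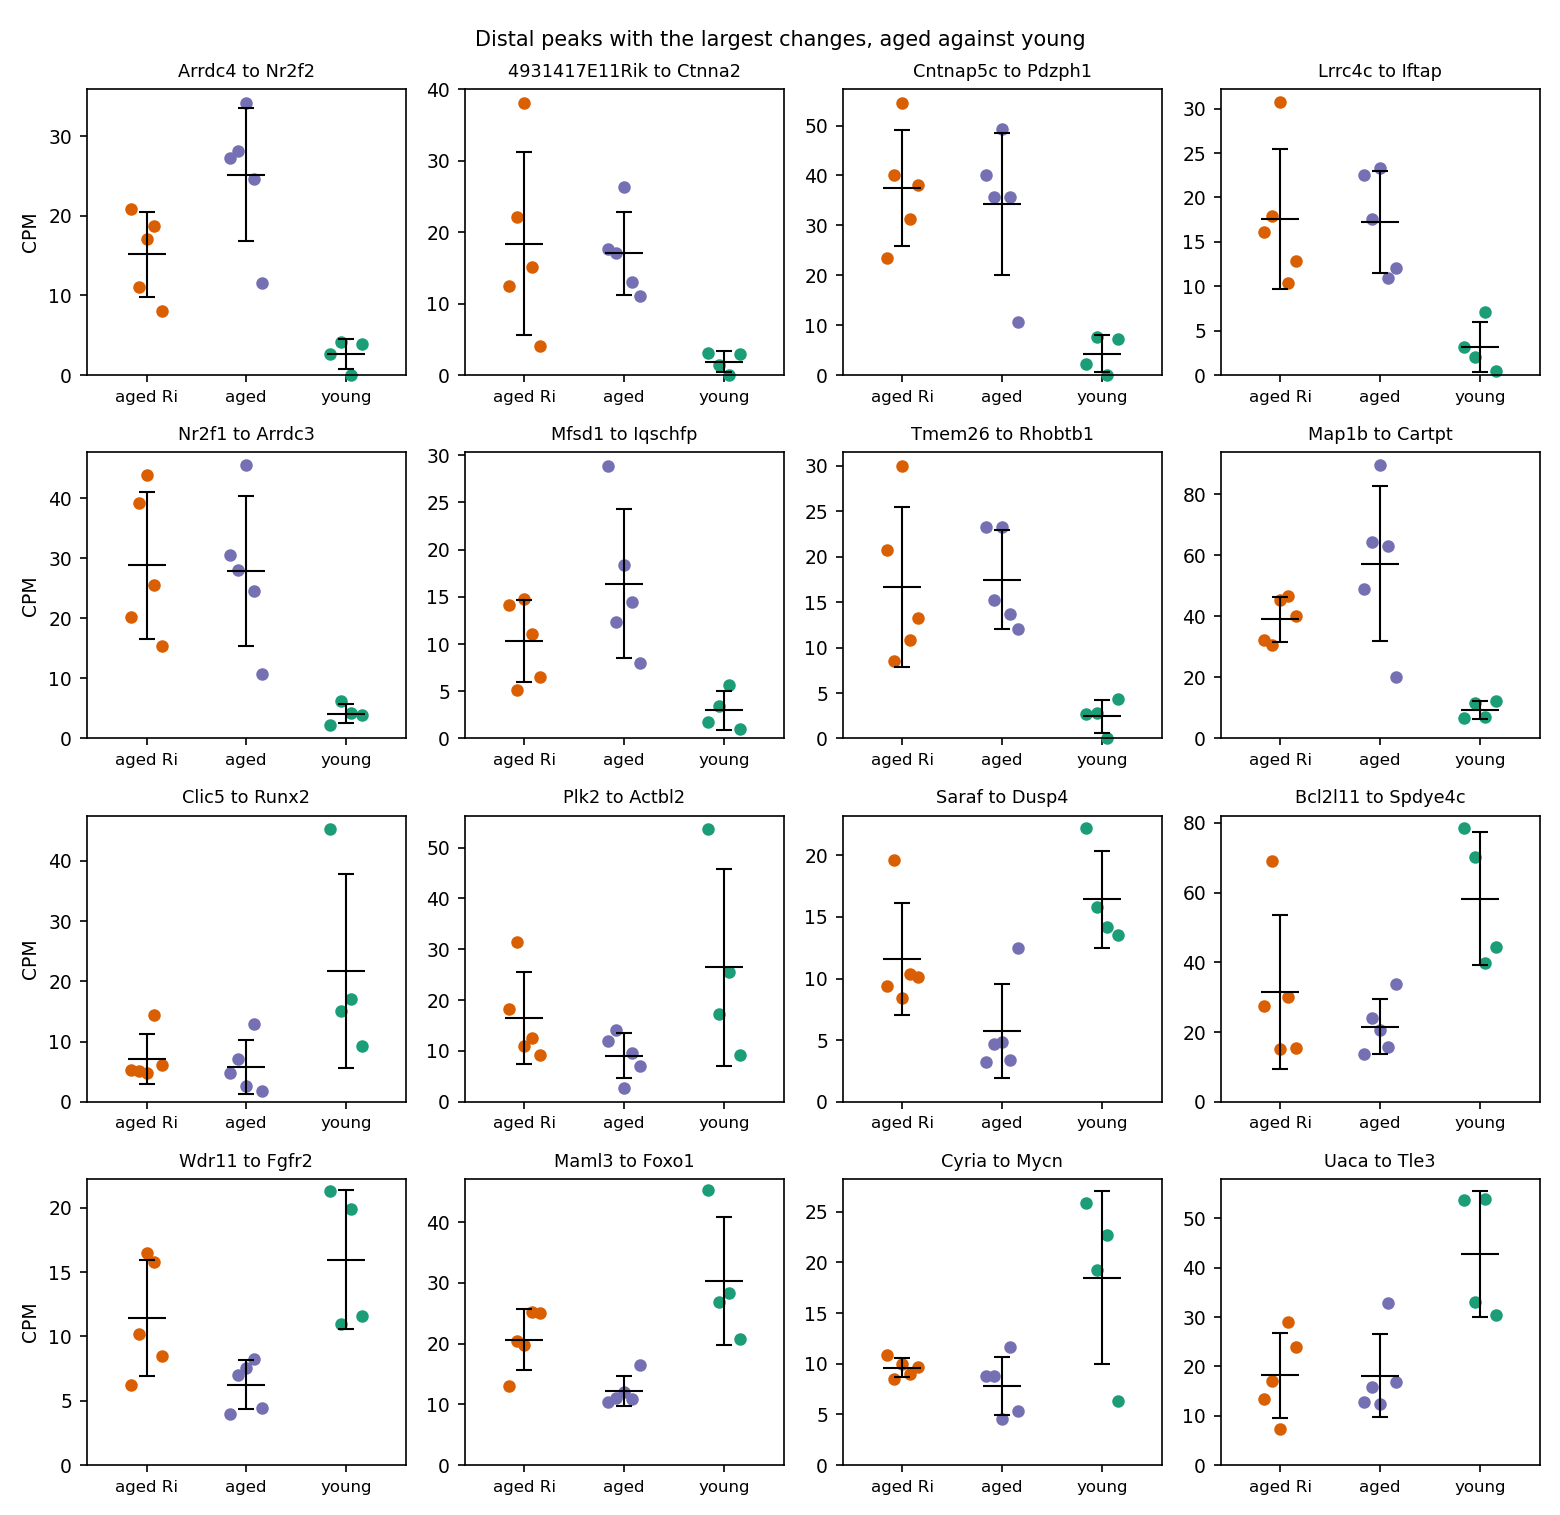
CPM of the 16 distal peaks named for aged against young, one panel per peak titled by its flanking genes, one point per library with the mean and SD of each group. In the panels Arrdc4 to Nr2f2, Nr2f1 to Arrdc3 and Map1b to Cartpt no aged library reaches down to a young one. In the panel Maml3 to Foxo1 no aged library reaches up to one.

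Peaks were next grouped by flanking genes of 4 lists. Of 307 tested peaks beside 24 HSC regulators, 29 were higher and 2 lower in aged than in young libraries (median log2 fold change 0.10). Of 226 beside 18 lineage regulators, 22 were higher and 4 lower (0.25), and of 174 beside 34 developmental regulators, 20 were higher and 2 lower (0.19). Beside 34 adhesion and axon guidance genes, 28 of 152 were higher (18.4%) and 1 lower, with a median of 0.57, against 8.71% and 0.16 over all distal peaks tested. In the other lists 9.4%, 9.7% and 11.5% were higher, where 4.45% of all peaks were. The lists were chosen with earlier results of these data known, and their peaks were not matched for distance from genes. Differences between the lists and all distal peaks were not tested.

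A peak lay in the long gap between Etaa1 and Meis1, a homeobox gene needed for stem cell maintenance (chr11:18216636-18217335). It was 262761 bp from Etaa1 and 663093 bp from Meis1. Its libraries read 36.4, 40.9, 64.2, 56.1 and 25.5 CPM in aged Ri, 41.7, 39.8, 68.8, 47.2 and 22.7 CPM in aged, and 4.89, 19.2, 9.94 and 12.6 CPM in young libraries. The lowest aged value lay above the highest young one (log2 fold change 1.89 ± 0.277, adjusted p = 5.58e-05). A peak 371155 bp from Runx1, a core factor of blood stem cell formation, separated the groups too (chr16:93197229-93197928). It gave 45.8, 23.8, 75.2, 50.3 and 21.4 CPM in aged Ri, 40.9, 37.5, 56.8, 46.5 and 23.6 CPM in aged, and 10.7, 12.4, 9.94 and 13.1 CPM in young libraries, a log2 fold change of 1.71 ± 0.277 in aged (adjusted p = 0.000187). Both calls held in every alternative fit. In the gap between Cyria and Mycn, a proto-oncogene of the Myc family, 2 peaks went opposite ways. The one at chr12:12570804-12571503 was higher in aged (log2 fold change 1.47 ± 0.271, adjusted p = 0.00082, lost with the gene-end covariate at 0.134), and the one at chr12:12580575-12581274 was the decrease named above.

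Among lineage regulators, the smallest p belonged to a decrease 90424 bp from Lef1, a Wnt pathway factor of early lymphocytes (chr3:131019174-131019873). It read 4.69, 7.66, 6.13, 7.55 and 10.5 CPM in aged Ri, 4.01, 4.69, 3.01, 8.21 and 8.46 CPM in aged, and 34.2, 13.7, 29.8 and 12.1 CPM in young libraries. Every young value exceeded every aged one (log2 fold change -1.96 ± 0.354, adjusted p = 0.000807), and the call held without each library in turn but not with the gene-end covariate (0.414). The developmental list gave the peaks of the Arrdc4 to Nr2f2 and Nr2f1 to Arrdc3 gaps described above. It also gave one between Bmp4, a bone morphogenetic protein gene, and Cdkn3 (chr14:46704239-46704938). This lay 313570 bp from Bmp4 and 55523 bp from Cdkn3. That peak gave 43.7, 34.9, 83.0, 62.6 and 35.2 CPM in aged Ri, 43.3, 37.5, 77.8, 52.0 and 37.9 CPM in aged, and 7.11, 21.3, 15.6 and 22.2 CPM in young libraries. Aged and young did not overlap there (log2 fold change 1.64 ± 0.263, adjusted p = 0.000174), and the call held in every alternative fit.

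The adhesion list was led by Cntnap5a and Ctnna2, genes of neuronal cell contact. A peak in the gap between Dsel and Cntnap5a lay 902232 bp from Cntnap5a (chr1:114781806-114782505). Its libraries read 14.6, 15.3, 12.9, 9.35 and 5.26 CPM in aged Ri, 16.8, 9.37, 20.7, 8.9 and 11.6 CPM in aged, and 2.22, 2.75, 1.42 and 0.484 CPM in young libraries, where single counts decide the value. Its log2 fold change was 2.93 ± 0.429 (adjusted p = 5.59e-05). Another peak of the same gap, 1644597 bp from Cntnap5a (chr1:114039441-114040140), gave 2.36 ± 0.343 (adjusted p = 5.29e-05), and one 493569 bp from Ctnna2 (chr6:76387369-76388068) gave 2.30 ± 0.336 (adjusted p = 0.000132, and 0.0554 with the gene-end covariate). The Cntnap5a calls held in every alternative fit. The Ctnna2 peak was the deepest of these 3, with 53.1, 60.4, 118, 55.7 and 25.1 CPM in aged Ri, 58.6, 47.5, 89.5, 52.0 and 21.4 CPM in aged, and 5.77, 16.5, 5.68 and 10.6 CPM in young libraries.

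Of the 623 changed peaks, 142 (22.8%) overlapped 138 non-coding genes, as did 29% of all distal peaks tested, and none overlapped a microRNA, tRNA or snoRNA gene. The 204 peaks over lncRNA start sites gave 15 higher (7.39%, against 8.71% of distal and 4.45% of all peaks) and 6 lower of 203 tested. For comparison, 1.28% of distal and 1.26% of all peaks were lower. These differences were not tested. Gm35922, whose start is printed above, lies between Glis3, a zinc finger factor gene, and Slc1a1, a glutamate transporter gene. Its peak read 33.8, 33.2, 38.1, 24.5 and 27.1 CPM in aged Ri, 28.1, 21.7, 29.7, 14.4 and 15.1 CPM in aged, and 2.22, 3.44, 5.68 and 7.26 CPM in young libraries. Both old groups lay wholly above young (log2 fold change 2.23 ± 0.343 for aged, adjusted p = 0.000106, held in every alternative fit).

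The Gm39895 peak lay 63571 bp from Lmo2, which encodes a bridging factor of the blood stem cell transcription complex. It read 11.5, 6.81, 9.36, 8.27 and 13.7 CPM in aged Ri, 24.9, 11.7, 13.5, 12.3 and 6.23 CPM in aged, and 5.33, 3.44, 0 and 4.35 CPM in young libraries. In aged the log2 fold change was 1.75 ± 0.404 (adjusted p = 0.00758, and 0.454 with the gene-end covariate). The Gm32865 peak, with its 2 AP-1 matches, lay between Adamts5, an aggrecan-cleaving protease gene, and N6amt1. It read 25.0, 33.2, 48.1, 26.3 and 19.0 CPM in aged Ri, 27.3, 18.2, 26.3, 23.3 and 12.0 CPM in aged, and 8.44, 7.56, 0 and 8.22 CPM in young libraries. The aged difference was 1.51 ± 0.346 on the log2 scale (adjusted p = 0.00812, and 0.354 with the covariate). In both, no aged value overlapped a young one. The Gm10505 peak, between Lemd2 and Grm4, went the other way with 4.17, 8.51, 4.84, 7.19 and 8.09 CPM in aged Ri, 8.02, 7.62, 5.26, 4.11 and 8.46 CPM in aged, and 18.7, 18.6, 25.6 and 13.5 CPM in young libraries. Its young values all exceeded the old ones (-1.47 ± 0.305, adjusted p = 0.00291, and 0.464 with the covariate).

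Summing the distal peaks of each gap lessens counting error. Of 1444 gaps tested, 172 were higher (11.9%) and 11 lower (0.762%) in aged than in young libraries, where 5.43% of all entries of that table were called (4.26% higher and 1.17% lower), and the median log2 fold change of a gap was 0.22. Most entries of that table are single peaks, which lack the gain from summing, so its share is not a like background here or below. Among the 183 gaps called, 45 held a single distal peak, where nothing was summed. The count of 183 became 92 without aged 1 and 86 without aged 3. Dropping young 1, 2, 3 or 4 gave 35, 104, 115 or 281. The gap between Ccdc50 and Fgf12, a fibroblast growth factor homologue gene, gave the smallest p. Its 2 peaks together read 29.2, 32.4, 38.4, 31.6 and 19.4 CPM in aged Ri, 28.1, 38.7, 59.8, 32.2 and 24 CPM in aged, and 4.44, 8.25, 12.8 and 4.84 CPM in young libraries. All old libraries exceeded all young ones there (log2 fold change 2.45 ± 0.279, adjusted p = 2.57e-06). The gaps between Stard4 and Nrep (2.07), Nup35 and Zfp804a (1.94) and Rprm and Galnt13 (1.85) followed, and these 4 calls held in every alternative fit.

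Of the 4 gaps named for a decrease, the one between Rpl34 and Lef1 held the most, with 9 distal peaks over 261 kb. Together they read 68.7, 63.0, 61.3, 72.6 and 80.1 CPM in aged Ri, 64.2, 59.2, 51.1, 91.7 and 64.6 CPM in aged, and 212, 88.0, 153 and 67.2 CPM in young libraries. Young 1 and young 3 were high, and young 4 lay among the old libraries. The log2 fold change was -0.94 ± 0.238 (adjusted p = 0.0181), and the call was lost without young 1, young 3, aged 1, aged 2 or aged 3 (adjusted p 0.0544 to 0.261).

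The gap between Myc, the proto-oncogene, and Gsdmc is known for a blood enhancer cluster far from Myc that acts on it in stem and progenitor cells. It held 24 distal peaks, whose sum averaged 399 ± 85.9 CPM in aged Ri, 391 ± 54.2 CPM in aged and 269 ± 40.6 CPM in young libraries (SD). The sum was 358, 392, 545, 376 and 322 CPM in aged Ri, 390, 318, 471, 382 and 395 CPM in aged, and 238, 307, 230 and 301 CPM in young libraries, so that no old library lay below a young one. For aged against young the log2 fold change of the sum was 0.58 ± 0.189 (adjusted p = 0.0623), with 3 peaks called higher and 0 lower. For aged Ri against young it was 0.62 ± 0.189 (adjusted p = 0.0292; lost without aged Ri 1, aged Ri 3, young 1, young 2 or young 3, at 0.0642 to 0.166). Aged Ri and aged did not differ by the test (0.04, adjusted p = 0.981).

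The strongest peak of the gap lay 1657702 bp from Myc (chr15:63648063-63648762) and read 65.6, 100, 129, 90.6 and 65.9 CPM in aged Ri, 81.0, 68.0, 129, 111 and 114 CPM in aged, and 36.9, 70.8, 51.1 and 78.8 CPM in young libraries. Aged and young overlapped (log2 fold change 0.82 ± 0.229, adjusted p = 0.0276; lost without young 1, young 2, young 3, aged 1 or aged 3, at 0.063 to 0.176). A neighbour 1674861 bp from Myc (chr15:63665222-63665921) separated them fully. It read 47.9, 59.6, 92.3, 60.4 and 42.9 CPM in aged Ri, 60.2, 44.5, 92.1, 65.7 and 48.5 CPM in aged, and 16.4, 33.7, 32.7 and 33.4 CPM in young libraries, a log2 fold change of 1.15 ± 0.238 in aged (adjusted p = 0.00278; 0.0531 without young 1). In the lncRNA Pvt1, beside Myc, a peak at chr15:62138959-62139658 was higher in aged Ri than in young libraries (log2 fold change 1.28 ± 0.276, adjusted p = 0.00233). It did not pass the test for aged Ri against aged (0.92, adjusted p = 0.0817) or aged against young (0.36, adjusted p = 0.488). It read 18.7, 16.2, 37.1, 21.2 and 22.2 CPM in aged Ri, 14.4, 7.62, 12.8, 13.7 and 13.4 CPM in aged, and 10.7, 9.62, 7.1 and 9.67 CPM in young libraries, and all aged Ri values exceeded all others.

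**Figure D4:**
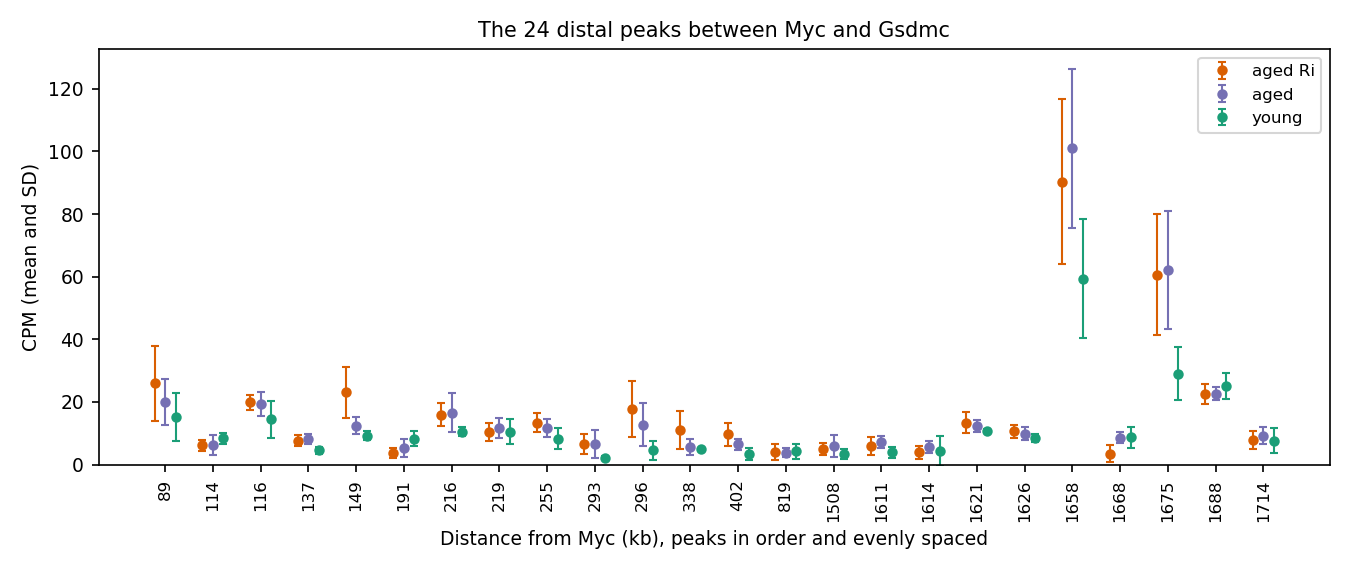
Mean CPM with SD in aged Ri, aged and young libraries of the 24 distal peaks between Myc and Gsdmc, drawn in order from Myc and evenly spaced. The 2 peaks about 1657702 and 1674861 bp from Myc are higher in both old groups than in young.

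For aged Ri against aged, the edgeR fit on group and batch called 26 distal peaks higher (0.417%) and 9 lower (0.144%) of 6234 tested. Over all peaks it called 0.446% (0.375% higher and 0.0711% lower). With the replicate number as a block, which pairs each aged Ri library with the aged library of the same number, 212 were higher (3.83%) and 151 lower (2.73%) of 5541 tested. In that fit 4.42% of all peaks were called (2.89% higher and 1.53% lower). The adjusted p-values printed for single peaks and gaps in this comparison, above and below, come from fits without the block. All 35 distal peaks called without the block were called with it too. A peak given as not passing the test in this comparison may pass with the block. Leaving out aged 1, 2, 3 or 4 brought the count of 35 to 11, 6, 5 or 3. Leaving out an aged Ri library gave 7 (replicate 2), 3 (replicate 3) or 71 (replicate 5). Of the 35 peaks, 22 reached the mean count of 20 used for naming.

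Among these 22, a peak between Tcp10c and Tcte2, genes of the t-complex expressed in testis, had the largest fold change (chr17:13474553-13475252). It read 23.4, 22.1, 49.4, 28.4 and 21.0 CPM in aged Ri, 8.02, 7.03, 7.9, 10.9 and 10.7 CPM in aged, and 3.11, 6.19, 7.1 and 8.71 CPM in young libraries. Every aged Ri value was above every aged and young one (log2 fold change 1.69 ± 0.258, 3.24-fold, adjusted p = 0.00131), and the call held in all 18 alternative fits.

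The other call that held in all 18 was a decrease between Haao, a kynurenine pathway gene, and Zfp36l2, an mRNA decay factor gene needed for blood stem cells, at the start of the lncRNA Gm41638 printed above (chr17:83956305-83957004). It read 18.2, 11.1, 12.3, 14 and 14.2 CPM in aged Ri, 36.1, 46.9, 36.8, 38.3 and 22.7 CPM in aged, and 15.1, 22, 9.94 and 17.9 CPM in young libraries. Aged libraries stood above both other groups without overlap. The log2 fold change was -1.34 ± 0.226 for aged Ri against aged (adjusted p = 0.00397), 1.05 ± 0.251 for aged against young (adjusted p = 0.0092; 0.109 without young 1) and -0.28 ± 0.26 for aged Ri against young (adjusted p = 0.5). The first 2 of these comparisons share the aged libraries.

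A peak upstream of Myc also stood highest in aged, at lower depth (56792 bp from the gene, chr15:61927850-61928549). It read 4.17, 5.11, 4.84, 4.32 and 6.06 CPM in aged Ri, 14.4, 12.3, 11.3, 13.7 and 8.02 CPM in aged, and 2.66, 4.12, 5.68 and 3.87 CPM in young libraries. No aged value overlapped either other group (aged Ri against aged -1.25 ± 0.291, adjusted p = 0.0417; aged against young 1.60 ± 0.351, adjusted p = 0.00463). The first call was lost without any one of aged 1 to 4 or aged Ri 1 to 4 (adjusted p 0.0891 to 0.267), the second without young 1 (0.0793).

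Among the increases was a peak between Ndfip2 and Spry2, an inhibitor of receptor tyrosine kinase signalling (chr14:105615582-105616281). It read 21.9, 25.5, 35.5, 23.7 and 12.9 CPM in aged Ri, 8.02, 5.86, 8.27, 8.9 and 11.6 CPM in aged, and 9.33, 11.0, 5.68 and 14 CPM in young libraries. Its log2 fold change was 1.47 ± 0.275 (adjusted p = 0.00927; lost without any one of aged 2 to 4 or without aged Ri 3, at 0.0558 to 0.0979). A second lay between Pgrmc2 and Jade1, a subunit of a histone acetyltransferase complex (chr3:41408589-41409288). It read 28.1, 49.4, 74.6, 38.1 and 26.3 CPM in aged Ri, 11.2, 19.3, 13.2, 16.4 and 18.7 CPM in aged, and 18.2, 16.5, 9.94 and 21.8 CPM in young libraries. There the log2 fold change was 1.43 ± 0.265 (adjusted p = 0.01; lost without aged 3, aged 4, aged Ri 2 or aged Ri 3, at 0.0508 to 0.0764). In both, aged Ri lay wholly above aged. Between aged and young the log2 fold changes were -0.29 ± 0.321 and -0.14 ± 0.305 (adjusted p = 0.631 and 0.833).

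The 5 other increases had log2 fold changes of 1.15 to 1.26 and lay beside Rai14, Sema3a, Dll1, Nek7 and N6amt1. The 2 other decreases lay beside Kctd1 (-1.31, adjusted p = 0.0064) and Vldlr (-1.24, adjusted p = 0.0402). Each of these 7 calls was lost without aged 4 and again without aged Ri 3, and 6 of them without further libraries, with adjusted p values of 0.0548 to 0.413 over these fits. Sema3a encodes a secreted guidance cue and Dll1 a Notch ligand.

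**Figure D5:**
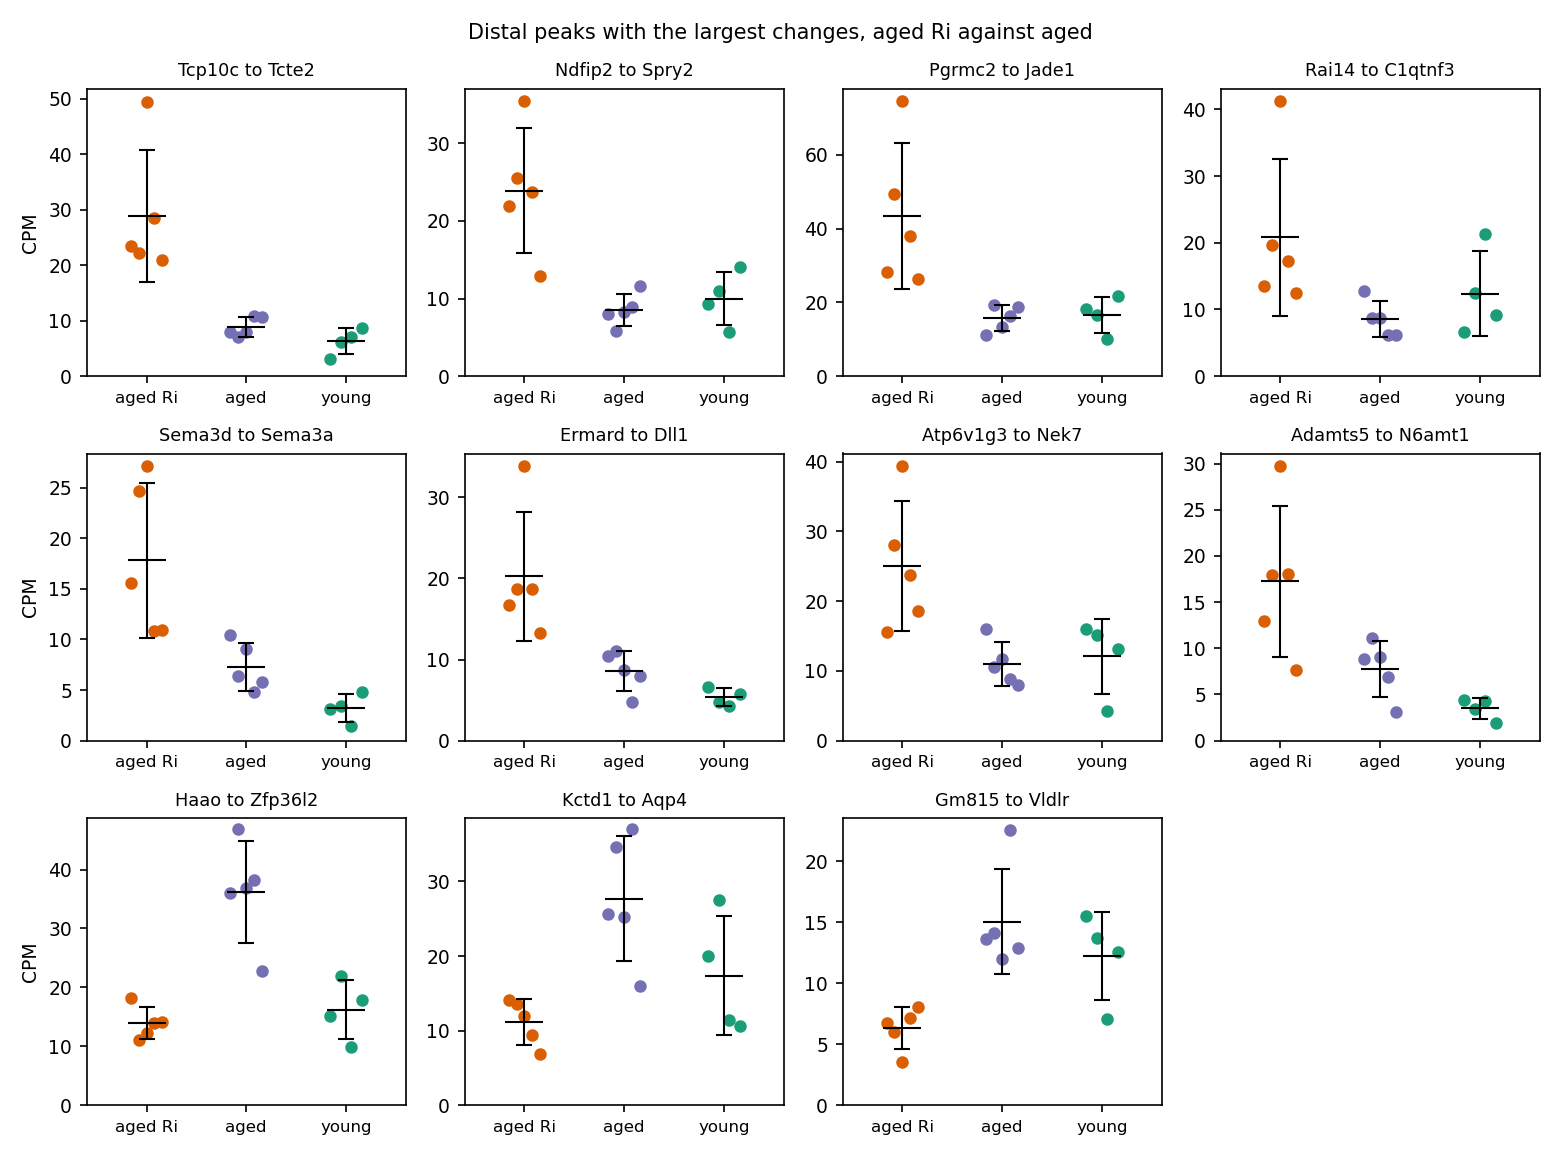
CPM of the 11 distal peaks named for aged Ri against aged, one panel per peak titled by its flanking genes, one point per library with the mean and SD of each group. Between Tcp10c and Tcte2 all aged Ri libraries lie above 20 CPM and all aged and young ones below 11 CPM, and between Haao and Zfp36l2 the aged libraries stand above both other groups.

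Of 307 peaks beside HSC regulators, 2 were higher and 1 lower in aged Ri than in aged libraries, against 1 and 0 of 226 beside lineage regulators, 2 and 0 of 174 beside developmental regulators and 1 and 0 of 152 beside adhesion and guidance genes. As shares, 0.652%, 0.443%, 1.15% and 0.658% were higher, each from 1 or 2 peaks, where 0.417% of distal and 0.375% of all peaks were higher. The median log2 fold changes were -0.01, 0.07, -0.03 and -0.19, against -0.04 over all distal peaks tested. One of them was the peak at the start of lncRNA Gm12708, 140713 bp from Jun, an AP-1 subunit gene (chr4:95192935-95193634). It read 10.9, 12.8, 17.4, 14.7 and 10.1 CPM in aged Ri, 4.81, 5.86, 7.9, 5.47 and 2.23 CPM in aged, and 9.33, 8.93, 11.4 and 5.32 CPM in young libraries. Aged Ri lay wholly above aged (log2 fold change 1.33 ± 0.278, adjusted p = 0.0229), and young lay between with overlap. The call was lost without any one of aged 1 to 4, aged Ri 2 or aged Ri 3 (adjusted p 0.0508 to 0.13).

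A peak 118739 bp from Klf4, a Krüppel-like factor gene of stem cells and monocytes, was one of the deeper peaks called (chr4:55651214-55651913). It read 45.3, 116, 133, 113 and 72.4 CPM in aged Ri, 45.7, 34.6, 53.0, 39.7 and 58.3 CPM in aged, and 47.1, 59.8, 56.8 and 80.3 CPM in young libraries. Aged Ri 1 lay among the aged libraries and the other 4 above them (1.04 ± 0.227, adjusted p = 0.0318), and the call was lost without any one of aged 1 to 4, aged Ri 2 or aged Ri 3 (0.0587 to 0.211). Beside Cxcr4, the chemokine receptor that holds stem cells in marrow, a peak at chr1:128724419-128725118 gave 1.12 ± 0.243 (adjusted p = 0.0299), lost without the same libraries (0.0501 to 0.244).

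Summed over gaps, aged Ri against aged gave 2 higher and 1 lower of 1444, where 0.414% of that table was called (0.363% higher and 0.0505% lower). With the replicate block 19 were higher and 23 lower of 1384, where 3.68% of that table was called (2.51% higher and 1.17% lower). The gap between Ccdc91 and Far2 read 48.4, 46.8, 87.5, 46.0 and 27.9 CPM in aged Ri, 27.3, 21.1, 35.7, 30.1 and 20.5 CPM in aged, and 14.7, 16.5, 14.2 and 11.6 CPM in young libraries. The 3 groups were in the order aged Ri, aged and young, with aged Ri 5 inside the aged range (log2 fold change 0.92 ± 0.205, adjusted p = 0.0344). The other 2 gaps were those between Ctdp1 and Nfatc1 (0.92, adjusted p = 0.0408) and between Mtpn and Chrm2 (-1.41, adjusted p = 0.024). No gap was called when any one of aged 1 to 4 or aged Ri 3 was left out. The count was 1 when aged Ri 1 or aged Ri 2 was dropped, 7 without aged 5 and 9 without aged Ri 5.

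Aged Ri against young gave 780 distal peaks that were higher (12.5%) and 218 that were lower (3.50%), where 11.5% of all peaks were called (7.9% higher and 3.56% lower), with a median log2 fold change of 0.15. The count of 998 was 524 without aged Ri 3 and 116 with the gene-end covariate, and 247 gaps were higher and 36 lower, where 11.3% of that table was called (8.16% higher and 3.19% lower). That count of 283 gaps was 152 without aged Ri 3, and 148, 176 or 180 without young 1, 2 or 3. The share called higher was 10.8%, 13.5%, 13.6% and 15.7% in the 4 distance bins, 8.68% for near intergenic peaks, 9.41% in gene bodies and 2.45% at gene ends. The young libraries also serve the aged comparison, so these counts are not a second test of age. Among the largest increases not described above, or described only for aged, were peaks 84942 bp from Epha4, an ephrin receptor gene (log2 fold change 2.85), at the Gm35922 start (2.75 ± 0.332, adjusted p = 2.31e-06), between Asb3 and Stc2 (2.66) and beside Klf13 (2.61), and all 4 held in every alternative fit.

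The peak beside Epha4 (chr1:77281541-77282240) read 20.8, 27.2, 42.3, 19.8 and 13.3 CPM in aged Ri, 22.5, 17, 31.2, 10.3 and 4.01 CPM in aged, and 3.55, 2.06, 1.42 and 3.87 CPM in young libraries, with aged Ri and aged both wholly above young. The gap between Zeb2, a repressor gene used in blood cell differentiation, and Acvr2a held a peak 1253346 bp from Zeb2 (chr2:46370788-46371487). It read 39.6, 88.5, 98.1, 63.6 and 34.4 CPM in aged Ri, 27.3, 27.5, 48.5, 39.0 and 27.2 CPM in aged, and 13.8, 24.1, 18.5 and 16.9 CPM in young libraries. The 3 groups were stepped, with aged Ri and aged overlapping (aged Ri against young 1.79 ± 0.259, adjusted p = 2.53e-05, held in every alternative fit; aged Ri against aged 0.90, adjusted p = 0.0511). In the same gap, 3 of 8 distal peaks in the lncRNA Gm13481 were higher in aged Ri than in young libraries, and 3 of 8 in aged.

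Decreases in aged Ri included a peak 57776 bp from Cux1, a homeobox factor gene (chr5:136625366-136626065), with 3.64, 9.36, 2.58, 10.1 and 8.09 CPM in aged Ri, 9.62, 15.8, 12.4, 15.1 and 15.1 CPM in aged, and 29.3, 22, 18.5 and 13.1 CPM in young libraries. Aged lay between and overlapped both (aged Ri against young -1.65 ± 0.325, adjusted p = 0.000976; 0.349 with the gene-end covariate). Another lay 107843 bp from Ccnd1, the cyclin D1 gene. It read 5.21, 5.11, 7.42, 6.47 and 7.68 CPM in aged Ri, 16.8, 11.7, 9.4, 10.3 and 9.8 CPM in aged, and 28.4, 11.7, 12.8 and 10.6 CPM in young libraries, a log2 fold change of -1.27 ± 0.299 against young (adjusted p = 0.005; 0.142 without young 1). Its aged Ri values lay below all others, and the difference from aged did not pass the test (-0.74, adjusted p = 0.317).

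In the antigen-receptor loci the calls against young were mostly decreases. Of 143 tested, 2 were higher (1.4%) and 20 lower (14%) in aged Ri than in young libraries, where 7.9% of all peaks were higher and 3.56% lower. Among them were 2 and 11 of 68 tested peaks in Igh, the immunoglobulin heavy chain locus, and 0 and 5 of 56 in Tcra, the T cell receptor alpha locus. Without young 1, 2 were higher and 8 lower of 134 (5.97%, against 2.23% of all peaks in that fit), and with the gene-end covariate 0 and 1 of 143. Leaving out young 2, 3 or 4 gave 12, 8 or 34 lower. The 4 decreases in aged against young were all in Igh. Over all antigen-receptor loci the decreases numbered 0 without young 1, and 3 or 1 without young 2 or 3. Without young 4 they numbered 15, of which 10 were in Igh. For aged against young the median log2 fold change of the 143 was -0.24. Summed over the 64 distal peaks between Adam6a and Zfp386, within Igh, the libraries read 486, 484, 377, 505 and 441 CPM in aged Ri, 573, 540, 371, 585 and 449 CPM in aged, and 1100.1, 545, 654 and 377 CPM in young. Young 1 stood above the other 13 libraries, and the sum passed no test (aged Ri against young -0.50 ± 0.195, adjusted p = 0.0919; aged against young -0.39, adjusted p = 0.239). B cell marker gene ends were highest in the same library, and their part in the Igh values was not tested. Nearby on the same chromosome, the 6 distal peaks between Tmem121 and Adam6b gave a sum that did pass for aged Ri against young. It was 27.8 to 47.7 CPM in aged Ri, 42.3 to 63 CPM in aged and 60.5 to 89.3 CPM in young libraries. The log2 fold change was -0.845 ± 0.193 (adjusted p = 0.00403). That call held without each library in turn but not with the gene-end covariate (0.146). Aged against young did not pass (-0.503, adjusted p = 0.116). The 60 peaks between Gm36448 and Dad1, within Tcra, averaged 471 CPM in aged Ri, 533 CPM in aged and 536 CPM in young libraries and passed no test (aged Ri against young -0.14 ± 0.171, adjusted p = 0.624).

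None of the 6 most accessible distal peaks passed the test in any comparison. One peak between Flrt2 and Galc (chr12:97061261-97061960) averaged 3953.3 ± 858 CPM in aged Ri, 4072.5 ± 767 CPM in aged and 4124.5 ± 1962.5 CPM in young libraries (SD), and held 3.11% to 8.64% of all distal counts in a library. The next by mean CPM lay between Nxph1 and Ndufa4, between Pcdh7 and G6pd2 and between Ptprd and Tyrp1, and whether reads map uniquely at such sites was not tested. The peak farthest from any gene, 2137311 bp from Cntnap5b, a contactin-associated protein gene (chr1:102627910-102628609), averaged 69.6 ± 20.2 CPM in aged Ri, 76.4 ± 31.3 CPM in aged and 121 ± 39.0 CPM in young libraries. Its difference with age did not pass the test (-0.66 ± 0.26, adjusted p = 0.127).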

How the data were processed

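Raw counts per consensus peak were deposited by the authors for 14 libraries and are in no normalized unit. The submitters' processing notes name mm10, SAMtools 1.14, featureCounts and R 4.2.0; aligner, peak caller, duplicate handling and any shift for the transposase are not given in the sources used here. Peaks were set by position against 21887 protein-coding genes of RefSeq (GRCm38.p6, the build of mm10). The distal peaks and gene lists were chosen with earlier results of these data known.

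All 57289 peaks entered 1 fit in R 4.3.3 with edgeR 4.0.16 (limma 3.58.1): filterByExpr, TMM scaling, and a robust quasi-likelihood test on group and sequencing batch over all 14 libraries, with Benjamini-Hochberg adjustment over all peaks tested and a threshold of 0.05. Standard errors come from the log2 fold change and its F value, and CPM uses TMM library sizes. Gaps were tested in a second table in which the distal peaks of each gap were summed. Shares and ratios were tested by exact 2-sided permutation within batches. Python 3.11.15, numpy 2.4.6, pandas 2.3.3, SciPy 1.17.1 and matplotlib 3.10.9 were used, and the tests were checked on simulated data.

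Named peaks were those past the threshold with a mean count of at least 20 and the same sign in each batch, the 8 largest changes in each direction with 1 per gap; the 6 most accessible; the 5 farthest from a gene; the 3 with the smallest p per gene list and comparison; the peaks over lncRNA starts; and the Myc gap. Gaps were the 6 with most peaks and, per comparison and direction, the 4 with the smallest p.

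Same-numbered aged Ri and aged libraries deviated together over the 2063 deeper distal peaks (r = 0.405, 0.325, 0.671, 0.314 and 0.395), which pairs them, and the label protocol has the inhibitor added to a portion of the aged cells. Numbers shared with young libraries did not pair (r from -0.311 to 0.0515). Alternatives were DESeq2 1.42.0, DESeq2 size factors, library totals, loess offsets, no filter, no batch term, the gene-end share as a covariate, the replicate block, a limit of 100 kb and leaving out each library. Intervals and floors cover counting error only.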

Additional observations from a re-analysis of the deposited data

Results flagged for a closer look

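In 16 of 153 groups examined, 1 library stood apart from the rest of its group by Dixon's ratio at the 95% level. Chance alone gives this in about 1 in 20 groups picked without regard to their values. The peaks below were mostly named for their values in these same libraries, so that rate is not a like background. Aged Ri 3, the deepest library, did so in 4 peaks, with 49.4 CPM between Tcp10c and Tcte2, 41.3 CPM between Rai14 and C1qtnf3, 33.9 CPM between Ermard and Dll1 and 29.7 CPM between Asb3 and Stc2. Aged Ri 2 read 19.6 CPM between Saraf and Dusp4 and 69.0 CPM between Bcl2l11 and Spdye4c, aged Ri 4 read 14.4 CPM between Clic5 and Runx2, and aged Ri 5 read 324 CPM between Ptprd and Tyrp1 and 9.7 CPM between Nmbr and Cited2. Aged 5 read 12.5 CPM between Saraf and Dusp4, 16.5 CPM between Maml3 and Foxo1 and 12.9 CPM between Dsel and Cntnap5a, where in the first 2 it lay closest to the young libraries. Aged 4 read 32.8 CPM between Uaca and Tle3, 22.6 CPM between Gm815 and Vldlr and 513 CPM between Nxph1 and Ndufa4. Young 1 read 28.4 CPM between Ccnd1 and Tpcn2.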

How the results depend on the processing

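Without each library in turn, the number of changed distal peaks ranged from 162 to 1049 for aged against young (623 with all), 3 to 71 for aged Ri against aged (35) and 524 to 1394 for aged Ri against young (998), and the number of changed gaps from 35 to 281 (183), 0 to 9 (3) and 148 to 368 (283). With each library's gene-end share fitted beside age and batch there were 40 changed distal peaks for aged against young and 116 for aged Ri against young, and 12, 10 and 34 changed gaps in the 3 comparisons. Without a batch term, aged Ri against aged gave 5. Among distal peaks over 100 kb from a gene, 398, 19 and 612 changed. With the replicate block, aged Ri against aged gave 363 peaks and 42 gaps (19 higher and 23 lower). The block gave 606 peaks for aged Ri against young and 477 for aged against young, where replicate numbers do not pair. Both of these fits against young held only the groups compared and left out replicate 5. DESeq2 called 520, 32 and 898.

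Higher calls made up 87.2% of those for aged against young, 74.3% for aged Ri against aged and 78.2% for aged Ri against young. Over the fits by other methods these moved by more than 10 points to 58.4% with the block for aged Ri against aged, to 89.8% with the block (run without aged Ri 5) and 97.4% with the covariate for aged Ri against young, and to 100% with the covariate for aged against young. When 1 library was left out they ranged over 75.7% (without young 4) to 94.1% for aged against young, 40% (2 of 5 calls, without aged 3) to 89.7% (without aged Ri 4) for aged Ri against aged, where they were 55.6% without aged 5 and 57.1% without aged Ri 2, and 68.2% (without young 1) to 88.2% (without aged Ri 3) for aged Ri against young.

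The difference in distal share ranged over 0.686 (without young 1) to 1.442 points for aged against young, -0.2514 to 0.1826 for aged Ri against aged, where the sign reversed without aged Ri 2 (0.1826), aged Ri 4 (0.1525) or aged 3 (0.06728), and 0.76 to 1.428 for aged Ri against young when 1 library was left out. Of 43 calls named by size, 11 held in every fit, 24 were lost with the gene-end covariate, 21 without at least 1 library, and 0 changed sign. Counts per peak limit these calls: 2063 of the 6398 distal peaks averaged at least 20 counts.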
